A study of Mus musculus with 4 samples.

Results

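The cells described here are capillary endothelial cells of the mouse femur, selected on the transcripts of Car4 and Tcf15 and a few genes that go with them. All 4 libraries were searched. A cell barcode was kept with 500 or more genes, 1000 or more UMIs (unique molecular identifiers, 1 per captured transcript) and at most 10% mitochondrial UMIs, and 18543 barcodes passed. A cell was taken as capillary when it held a UMI of Cdh5 or Pecam1 and at least 1 UMI in 2 or more of 6 genes (Car4, Tcf15, C1qtnf9, Aqp7, Clic5 and Slc28a2). It also had to hold no UMI of Stab2, Gja5 or Sema3g and under 50 UMIs of Col1a2 and Cxcl12 per 10000. These conditions chose 650 of the 5585 endothelial cells, 225 and 58 of them in the grafted libraries Graft_D40 and Graft_D19, 168 in Sham_D40 and 199 in Ctrl.

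Every mouse was a Rag2-/-gammac-/- C57BL/6 animal, a genotype that leaves the host without its own T, B and NK cells. Graft_D40 and Graft_D19 mice received DOHH2, a human follicular lymphoma B-cell line, inside the femur, and the bones were taken 40 or 19 days later. Sham_D40 mice had PBS injected in place of lymphoma cells and were taken on day 40, and Ctrl mice were not grafted. Each group is 1 library, no source used here gives the number of mice behind each, and Graft_D19 has no sham of its own day, so nothing below tests 1 group against another. Stroma sorted as CD31-negative, CD51-positive and CD200-positive and endothelium sorted as CD31-positive and Sca1-positive were sequenced together, so the endothelial gate itself used the products of Pecam1 and Ly6a.

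Capillary endothelium of heart, skeletal muscle and fat carries fatty acids from blood to the tissue. Lipoprotein lipase, anchored by GPIHBP1, frees fatty acids from lipoproteins, CD36 takes them up, fatty acid binding proteins carry them through the cell, and the transcription factors TCF15 and MEOX2 act together on this programme in mouse heart. Carbonic anhydrase 4, the product of Car4, sits on the outer surface of capillary cells and interconverts carbon dioxide and bicarbonate. Marrow sinusoids differ from such capillaries: they are wide, discontinuous vessels that clear particles with scavenger receptors such as stabilin 2.

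Of the 6 selecting genes, C1qtnf9, a secreted relative of adiponectin, was found in 83.9 to 92.9% of the capillary cells of a library, Clic5 in 69.3 to 88.1%, Tcf15 in 63.8 to 79.4%, Aqp7, a glycerol channel, in 42.2 to 51.8%, Slc28a2, a nucleoside carrier, in 29.3 to 52.4% and Car4 in 24.0 to 36.7%, as the rule set them. Outside the endothelium combinations of the 6 were rare, although single genes were less so. Aqp7 had a UMI in 1.53 to 8.41% and Clic5 in 4.46 to 7.42% of cells without a Cdh5 or Pecam1 UMI. Among cells without a Cdh5 or Pecam1 UMI, 2 or more of the 6 were seen in 0.26% in Graft_D40 and 0.444% in Graft_D19, against 0.957% in Sham_D40 and 0.938% in Ctrl, although those cells were deeper, with median UMIs of 3493 to 10785, than the capillary cells, with medians of 1614 to 4662. Of 1177 endothelial cells with 2 of the 6 genes, 321 held a Gja5 or Sema3g UMI, 89 held a Stab2 UMI and 210 reached the stromal limit, and a cell could fail more than 1 condition. No barcode of a capillary cell was shared between libraries, and a doublet caller marked 1 of the 650. Capillary cells of Ctrl were the shallowest, with a median of 1614 UMIs, while the median was 4662 in Graft_D40, 3988 in Graft_D19 and 4260 in Sham_D40, and the summed counts of the class were 1419802, 290681, 846282 and 368557 UMIs in Graft_D40, Graft_D19, Sham_D40 and Ctrl. A count of 0 then allows up to 2.11, 10.3, 3.54 and 8.14 CPM (counts per 1000000 of the class's summed UMIs) in those libraries, taking 3 counts as the limit. All intervals below are at 95% and cover counting error only.

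RNA of other cell types was also counted in the capillary cells. The 9 cartilage genes summed to 3112 CPM in Graft_D40 and 413 in Graft_D19, against 235 in Sham_D40 and 62.4 in Ctrl, and 4, 1, 1 and 0 cells of those libraries held 50 or more cartilage UMIs per 10000. The 10 muscle genes summed to 10.3 to 21.7 CPM, with 6 to 9 of them at 0, and the 7 haematopoietic genes to 5.63 to 29.8 CPM, with 4 to 6 at 0. The 7 stromal genes summed to 751 CPM in Graft_D40 and 334 in Graft_D19, against 607 in Sham_D40 and 193 in Ctrl. The 8 pericyte genes summed to 159 CPM in Graft_D40 and 134 in Graft_D19, against 100.4 in Sham_D40 and 483 in Ctrl, and were higher in sinusoidal cells, at 1237 to 1828 CPM. The 6 adipocyte genes summed to 102 to 190 CPM, with 3 or 4 at 0, and to 36.6 to 54.3 CPM in sinusoidal cells. Haemoglobin and other erythroid genes summed to 7.04 CPM in Graft_D40 and 6.88 in Graft_D19, against 268 in Sham_D40 and 117 in Ctrl. The part of these RNAs in the results was not tested, except where cells rich in cartilage UMIs were left out.

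The label was set beside 14 capillary genes that took no part in the selection. This list was chosen with earlier results of these data known, so it is a description and not an independent check. Capillary cells were compared with sinusoidal cells (3054 endothelial cells with a Stab2 UMI) and arterial cells (325 with a Gja5 or Sema3g UMI), both with under 2 of the 6 genes, without the UMIs of the other class and under the same stromal limit, by edgeR's quasi-likelihood test on counts summed per library and class with the library as a block (n = 4 libraries). A gene was called at an adjusted p (Benjamini-Hochberg) under 0.05 and a change of 1.5-fold, and since the 4 libraries are 4 conditions, the spread in this test includes that between conditions. Levels given with ± are the mean and SD over the 4 libraries, and the genes of the selection were left out of every count. Against sinusoidal cells 10 of the 14 genes were higher and 1 was lower, with a median log2 fold change of 1.62, where 10.4% of all 11990 genes tested were higher, 12.3% were lower and the median was -0.05. Against arterial cells 8 of the 14 were higher and 2 lower, with a median of 0.91, where 4.06% of 8347 genes were higher and 4.21% were lower around a median of 0.01. These shares of all genes are the background for every list counted below against the same classes.

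Cd36 (chr5:17781690-17888801), the fatty acid translocase, stood at 1876 CPM in Graft_D40 and 2068 in Graft_D19, against 2982 in Sham_D40 and 4121 in Ctrl in capillary cells. Sinusoidal cells held 309.6 CPM in Graft_D40 and 518 in Graft_D19, against 677 in Sham_D40 and 741 in Ctrl, and arterial cells 175 CPM in Graft_D40 and 109.7 in Graft_D19, against 475 in Sham_D40 and 1437 in Ctrl. The capillary level was the highest of the 3 classes in each library, with a log2 fold change of 2.25 ± 0.16 (SE, adjusted p = 9.9e-07) over sinusoidal cells and 3.0 ± 0.33 (SE, adjusted p = 0.00021) over arterial cells. Timp4 (chr6:115241892-115252205), an inhibitor of matrix metalloproteinases, was at 337 CPM in Graft_D40 and 385 in Graft_D19, against 624 in Sham_D40 and 1517 in Ctrl. It was nearly absent from sinusoidal cells, at 1.88 ± 0.334 CPM (SD, n = 4), and the log2 fold changes were 8.26 ± 0.29 (SE, adjusted p = 4.3e-09) over sinusoidal and 5.68 ± 0.39 (SE, adjusted p = 8e-06) over arterial cells.

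Meox2 (chr12:37108540-37179534), the homeobox partner of TCF15 in mouse heart capillaries, was measured at 235 CPM in Graft_D40 and 382 in Graft_D19, against 298 in Sham_D40 and 222 in Ctrl. It reached 2.00 ± 1.39 CPM in sinusoidal and 17.5 ± 13.9 CPM in arterial cells (SD, n = 4), and the 3 sets of values did not overlap. Its log2 fold change was 7.06 ± 0.25 (SE, adjusted p = 4.9e-09) over sinusoidal and 4.66 ± 0.30 (SE, adjusted p = 4.7e-06) over arterial cells. Of the remaining capillary genes, the water channel gene Aqp1 averaged 3696 ± 1480.4 CPM against 1092 ± 224 CPM in sinusoidal and 345 ± 105 CPM in arterial cells, and Rgcc, a cell cycle regulator, 697 CPM against 122 and 192 CPM. Without Sham_D40 the Rgcc call against arterial cells was lost (log2 1.66, adjusted p = 0.12). Btnl9, a butyrophilin-like gene also used as a capillary marker, went the other way, at 108 ± 17.9 CPM in capillary, 481 CPM in sinusoidal and 379 CPM in arterial cells, and without Sham_D40 its call against arterial cells was lost (log2 -1.35, adjusted p = 0.0583). Gpihbp1, Kdr and Sgk1 passed neither test.

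Since TCF15 belongs to the basic helix-loop-helix family, whose members bind E-boxes, the promoters of these 3 markers outside the rule are shown with the letters CANNTG in capitals, a motif that reads the same on both strands. Sequences are from RefSeq on GRCm38.p6, 250 bases before to 50 after the start of the transcript, written 5′ to 3′ on the gene's own strand. The windows are chr5:17835847-17836146 on the minus strand for Cd36, chr6:115252156-115252455 on the minus strand for Timp4 and chr12:37108290-37108589 on the plus strand for Meox2. The Cd36 window belongs to a transcript start inside the gene span given above, while those of Timp4 and Meox2 lie at the 5′ ends of their spans.
Cd36: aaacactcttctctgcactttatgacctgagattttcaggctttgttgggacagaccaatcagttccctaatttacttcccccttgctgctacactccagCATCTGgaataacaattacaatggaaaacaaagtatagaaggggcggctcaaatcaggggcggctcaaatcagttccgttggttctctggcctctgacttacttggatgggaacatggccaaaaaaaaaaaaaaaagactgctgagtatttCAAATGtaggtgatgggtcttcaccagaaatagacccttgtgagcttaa
Timp4: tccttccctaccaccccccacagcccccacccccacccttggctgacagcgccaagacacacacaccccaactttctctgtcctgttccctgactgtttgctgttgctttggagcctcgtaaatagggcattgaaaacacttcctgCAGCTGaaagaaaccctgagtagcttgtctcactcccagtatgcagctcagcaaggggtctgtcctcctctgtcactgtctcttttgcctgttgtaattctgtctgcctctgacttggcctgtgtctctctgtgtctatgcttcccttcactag
Meox2: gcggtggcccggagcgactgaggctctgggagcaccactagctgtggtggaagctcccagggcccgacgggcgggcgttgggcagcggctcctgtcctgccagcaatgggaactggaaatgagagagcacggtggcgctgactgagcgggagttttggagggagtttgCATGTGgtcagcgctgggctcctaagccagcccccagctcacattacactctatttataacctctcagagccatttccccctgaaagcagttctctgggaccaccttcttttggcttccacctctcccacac
The motif occurred 2 times in the Cd36 window and once in each of the others, and 72.1% of 27025 mouse promoters of the same length held it, so its presence does not set these genes apart.

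**Figure D1:**
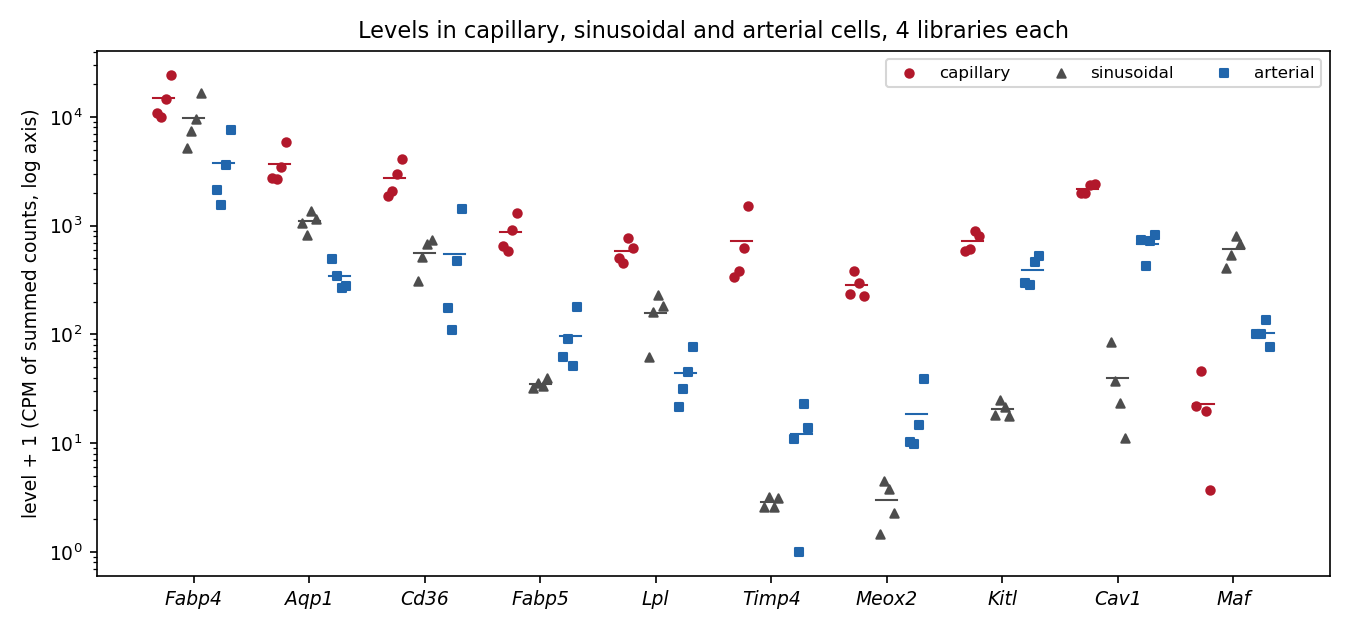
Level plus 1 in CPM (log axis) of 10 genes outside the selection in capillary, sinusoidal and arterial cells. Each point is 1 library and each bar the mean of 4. Timp4 and Meox2 are near the bottom of the axis in sinusoidal cells, and Maf is high there and low in capillary cells.

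Genes of fatty acid handling were more often higher than lower in the capillary cells. Of 29 tested against sinusoidal cells 13 were higher and 7 lower, with a median log2 fold change of 0.61, and of 26 tested against arterial cells 10 were higher and 1 lower, with a median of 0.56. Fabp5, which encodes a fatty acid binding protein, stood at 651 CPM in Graft_D40 and 585 in Graft_D19, against 915 in Sham_D40 and 1308 in Ctrl. Sinusoidal cells held 34.0 ± 3.22 CPM and arterial cells 94.7 ± 58.0 CPM of it (SD, n = 4), for log2 fold changes of 4.55 ± 0.19 (SE, adjusted p = 1.2e-08) and 3.32 ± 0.22 (SE, adjusted p = 6e-06).

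Fabp4, the most abundant gene of the list, averaged 14960.5 ± 6695 CPM in capillary, 9704 ± 4964 CPM in sinusoidal and 3744 ± 2744 CPM in arterial cells. Its difference from arterial cells, at a log2 of 2.22 ± 0.14 (SE, adjusted p = 4.5e-06), was larger than that from sinusoidal cells, at 0.61 ± 0.18 (SE, adjusted p = 0.023), which missed the threshold when the Graft_D40 library was left out (log2 0.47, adjusted p = 0.0893), when Graft_D19 was left out (0.72, adjusted p = 0.0671) and when Sham_D40 was left out (0.65, adjusted p = 0.085). Lpl, the gene of lipoprotein lipase itself, was at 586 ± 139 CPM in capillary, 158 ± 70.2 CPM in sinusoidal and 42.9 ± 24.3 CPM in arterial cells. Lipe and Mgll, lipases that release fatty acids from stored fat, were called higher in both comparisons. Mgll averaged 569 CPM against 50.6 and 253 CPM, and Lipe 106 CPM against 14.7 and 45.3 CPM.

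Cav1 and Cavin1, which build caveolae, the membrane pits of capillary endothelium, were higher in both comparisons. Cav1 reached 1995 CPM in Graft_D40 and 2002 in Graft_D19, against 2346 in Sham_D40 and 2428 in Ctrl in capillary cells. In sinusoidal cells it averaged 38.3 ± 32.2 CPM and in arterial cells 673 ± 169 CPM, with log2 fold changes of 6.12 ± 0.43 (SE, adjusted p = 8.5e-07) and 1.79 ± 0.14 (SE, adjusted p = 1.7e-05). The 7 genes lower than in sinusoidal cells included Pparg, the nuclear receptor of fat storage (log2 -2.49 ± 0.22 (SE, adjusted p = 5.8e-06)), Slc27a1 (-2.84), Angptl4, an inhibitor of lipoprotein lipase (-2.94), and Plin2, a lipid droplet coat protein (-2.27).

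Transcription factors differed from both other classes. Of 35 tested against sinusoidal cells 12 were higher and 5 lower, and of 34 tested against arterial cells 6 were higher and 7 lower. Meox1 joined Meox2 among the higher ones, at 70.7 ± 35.8 CPM in capillary and 5.71 ± 5.50 CPM in sinusoidal cells (log2 3.84 ± 0.42 (SE, adjusted p = 2.8e-05)); its difference from the 28.3 CPM of arterial cells was lost without Graft_D40 (adjusted p = 0.128) or Sham_D40 (adjusted p = 0.179). Tbx3, a T-box repressor, averaged 76.0 ± 38.1 CPM against 1.42 ± 0.628 CPM in sinusoidal and 29.5 ± 19.8 CPM in arterial cells, and was called in both comparisons. Maf, a factor of sinusoidal identity, stood at 21.1 CPM in Graft_D40 and 44.7 in Graft_D19, against 18.9 in Sham_D40 and 2.71 in Ctrl in capillary cells. It averaged 606 ± 169 CPM in sinusoidal and 103 ± 24.4 CPM in arterial cells, and its capillary level was called lower than both.

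Sox17 and Hey1 lay between the other classes. Sox17, which drives arterial fate, averaged 150.2 ± 43.8 CPM in capillary, 48.3 ± 13.2 CPM in sinusoidal and 491 ± 389.7 CPM in arterial cells, and was called higher than in sinusoidal cells (log2 1.63) and lower than in arterial cells (-1.38). Hey1, a Notch target, followed with 4.43 and -1.96. Nr2f2, a factor of venous fate, fell on the other side, with 86.2 ± 43.0 CPM in capillary and 481 ± 63.9 CPM in sinusoidal cells (log2 -2.60 ± 0.24 (SE, adjusted p = 8.5e-06)) and no call against arterial cells.

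Secreted and surface signals for neighbouring cells gave 12 higher and 5 lower of 31 tested against sinusoidal cells, and 4 higher and 8 lower of 27 tested against arterial cells. Kitl (chr10:100015630-100100416), stem cell factor, the ligand of KIT on blood stem and progenitor cells, was at 583 CPM in Graft_D40 and 605 in Graft_D19, against 900.4 in Sham_D40 and 809 in Ctrl in capillary cells. It averaged 19.6 ± 3.35 CPM in sinusoidal and 389.9 ± 119.9 CPM in arterial cells, with log2 fold changes of 5.14 ± 0.19 (SE, adjusted p = 5.6e-09) and 0.98 ± 0.13 (SE, adjusted p = 0.00059), so that the capillary level was the highest of the 3 classes. Bmp6, which in liver endothelium controls the iron hormone hepcidin, averaged 140.5 ± 51.1 CPM against 3.96 ± 1.30 CPM in sinusoidal and 84.4 ± 44.2 CPM in arterial cells, and the second difference was lost without any 1 of the 4 libraries (adjusted p of 0.0536 to 0.0895).

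Jag2, a Notch ligand, lay between the other classes, at 119 CPM in capillary, 15.6 CPM in sinusoidal and 258 CPM in arterial cells, and Edn1, endothelin 1, did likewise at 48.3, 4.92 and 194 CPM. The Jag2 difference from arterial cells was not called without Sham_D40 (adjusted p = 0.166). Cd274, the gene of PD-L1, which restrains T cells, was low but higher in capillary cells, at 25.4 CPM in Graft_D40 and 27.5 in Graft_D19, against 41.4 in Sham_D40 and 73.3 in Ctrl, while sinusoidal cells averaged 1.70 ± 0.549 CPM. Without Graft_D40 its call against arterial cells was lost (adjusted p = 0.109). Pdgfb, which recruits pericytes, averaged 396 CPM in capillary and 119.9 CPM in sinusoidal cells (log2 1.75 ± 0.20 (SE, adjusted p = 3.5e-05)), and its difference from the 427 CPM of arterial cells was not called (log2 -0.02 ± 0.14 (SE, adjusted p = 1)).

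Genes of the basement membrane, the sheet of matrix under a closed endothelium, were mostly higher than in sinusoidal cells, where 12 of 17 genes rose, 3 fell and the median log2 fold change was 1.41. Sparcl1, a matricellular protein, averaged 2185 ± 313 CPM against 50.1 ± 32.1 CPM in sinusoidal cells, Lamb1, a laminin chain, 171 against 17.1 CPM, and Col4a1, a chain of collagen IV, 1827 against 740.0 CPM. Against arterial cells 1 of 17 was higher, Sparcl1 at a log2 of 1.46 ± 0.12 (SE, adjusted p = 2.3e-05), and 3 were lower.

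Junction and transport genes split by member. Jam2 and Jam3, junctional adhesion molecules, were higher than in sinusoidal cells (log2 4.52 and 2.74) and arterial cells (1.52 and 1.20). Cldn5, the main claudin of tight endothelium, was lower than in both, at 542 ± 62.3 CPM against 1638 ± 376 CPM in sinusoidal and 1639 ± 469 CPM in arterial cells. Abcb1a, a drug efflux pump known from the blood-brain barrier, averaged 259 ± 49.9 CPM against 17.9 and 62.8 CPM, and Kcna5, a potassium channel, 49.95 against 1.20 and 2.11 CPM. In all, 7 of 15 barrier genes and 8 of 21 transport genes were higher than in sinusoidal cells and 4 of each list lower, and against arterial cells 5 of 14 and 6 of 17 were higher and 2 and 3 lower.

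Among the genes named by size alone, the first against sinusoidal cells with at least 50 CPM in the higher class were Slc26a10, Samd5, Timp4, Ablim3, Dach1, Stmn2, Shtn1, Tmem255b, Pgm5 and Meox2. Samd5 was at 84.5 CPM in Graft_D40 and 114 in Graft_D19, against 115 in Sham_D40 and 92.3 in Ctrl in capillary cells and at 0.193 ± 0.191 CPM in sinusoidal and 1.30 ± 1.5 CPM in arterial cells, so it was nearly confined to the capillary class among these 3. Dach1, a factor known from coronary artery growth, averaged 150.2 CPM against 0.51 CPM in sinusoidal and 28.0 CPM in arterial cells. Stmn2 was as high as 218 ± 82.1 CPM here but averaged 536 ± 387 CPM in arterial cells, a difference that was not called (log2 -1.05 ± 0.32 (SE, adjusted p = 0.074)).

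Among the first genes in the other direction were C5ar1, Cfd, Clca3a1, Dnase1l3, Fcgr2b, Igfbp2, Il13ra2, Mrc1 and Tmem273. Mrc1 and Fcgr2b, scavenger and antibody receptors of sinusoids, averaged 9.07 ± 3.33 CPM and 4.07 ± 4.26 CPM in capillary cells, against 1087 ± 304 CPM and 657 ± 325 CPM in sinusoidal cells. Over the sinusoidal list, 13 of 16 genes were lower and 1 higher, with a median log2 fold change of -3.34. Stab1, the close relative of the Stab2 used in the selection, was among the lower ones at 89.4 CPM in Graft_D40 and 114 in Graft_D19, against 86.3 in Sham_D40 and 67.8 in Ctrl, while sinusoidal cells averaged 682 ± 91.7 CPM. The gene that rose was Lyve1 (log2 3.31), also a lymphatic marker, but 72.2% of its 54 Graft_D40 UMIs were in 1 cell. The 6 lymphatic genes summed to 43.7 CPM in Graft_D40 and to 2.71 to 6.88 CPM in the other libraries.

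Against arterial cells the leading higher genes were Adh1, Car8, Fmo2, Lpl, Meox2, Pgm5, Prg4, Samd5, Stxbp6 and Timp4, and the leading lower genes Aif1l, Alox12, Bmx, Egfl8, Gja4, Gkn3, Hpgd, Nebl, Pcsk5 and Plcg2. Fmo2, a flavin-containing oxidase, stood at 737 CPM in Graft_D40 and 633 in Graft_D19, against 665 in Sham_D40 and 516 in Ctrl in capillary cells. It averaged 25.7 ± 19.2 CPM in arterial and 27.7 ± 3.85 CPM in sinusoidal cells. Gja4, the connexin that accompanies the Gja5 of the rule, averaged 8.08 ± 12.8 CPM against 462 ± 169 CPM in arterial cells (log2 -6.38 ± 0.48 (SE, adjusted p = 1.5e-05)). None of 15 arterial genes was higher than in arterial cells and 13 were lower, with a median of -1.96.

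Of 37 interferon genes 11 were higher than in sinusoidal cells and 4 lower, with Ifi27l2a at a log2 of 4.29 ± 0.33 (SE, adjusted p = 1.9e-06) and Irf7 at 1.13, and against arterial cells 1 of 33 was higher and none lower. Of 34 immediate early and stress genes 3 were higher than in sinusoidal cells and 13 lower, among them Fos (-1.82), Fosb (-1.93) and Jun (-1.04). Of 21 genes of nitric oxide and vessel tone 9 were higher and 5 lower: Nos3, the endothelial nitric oxide synthase, averaged 147 ± 36.2 CPM against 42.8 ± 24.8 CPM in sinusoidal cells, and Ace, which makes angiotensin II, was also higher (log2 4.47). Of 10 venous genes Vwf, Il1r1 and Ackr3 were higher and 6 were lower than in sinusoidal cells, including the selectins Selp (-3.03) and Sele (-4.03). Of 13 tip-cell genes 7 were higher than in sinusoidal cells and none lower, Cxcr4, the receptor of CXCL12, at a log2 of 4.24, and of 22 VEGF and Notch genes 7 were higher and 4 lower. Against arterial cells, 2 of 13 tip-cell genes were higher and 4 lower, 3 of 22 VEGF and Notch genes higher and 5 lower, 2 of 18 tone genes higher and 4 lower, 1 of 33 immediate early and stress genes higher and 3 lower, and 3 of 9 venous genes higher and none lower. Of these venous genes, Ackr1 (log2 2.70, adjusted p = 0.107) and Selp (log2 2.41, adjusted p = 0.157) lost the call without Graft_D40. Over all genes tested, 10.4% were higher and 12.3% lower than in sinusoidal cells, and 4.06% and 4.21% than in arterial cells. Some of these counts, such as 1 of 33 higher and 3 of 34 higher, lie near those shares.

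The arterial comparison rests on fewer cells: the arterial class held 153 cells in Graft_D40 and 77 in Graft_D19, with 62 in Sham_D40 and 33 in Ctrl. Its Graft_D19 cells carried 9390 CPM of the cartilage list and its Sham_D40 cells 1679 CPM of the erythroid list, whose part in the result was not tested. Without Sham_D40 the numbers of genes higher and lower were 172 and 146, against 339 and 351 with all 4 libraries, and those lower than in sinusoidal cells were 980, against 1475. A further 738 cells under the stromal limit held a Cdh5 or Pecam1 UMI, none of the 6 genes and no Stab2, Gja5 or Sema3g UMI. They count among the 5585 endothelial cells. Their 13 pan-endothelial genes summed to only 1411, 1946, 1000 and 3712 CPM in Graft_D40, Graft_D19, Sham_D40 and Ctrl. Capillary cells held 7492, 8638, 8309 and 8881 CPM of these genes, and all 13 were called higher in them. Against these remaining cells, 16.3% of 10524 genes were higher and 20.9% lower. Those remaining cells held 9509 to 34135 CPM of the cartilage list, and the counts of 1720 higher and 2200 lower genes became 971 and 1243 without cells at 50 or more cartilage UMIs per 10000.

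The class was not uniform. Of its cells 106 in Graft_D40 and 20 in Graft_D19, with 101 in Sham_D40 and 110 in Ctrl, held 4 to 6 of the selecting genes, and the other 119, 38, 67 and 89 held 2 or 3. Cd36, which the rule did not use, was 3079 CPM in the cells with 4 to 6 against 1020.1 CPM in those with 2 or 3 in Graft_D40, 4179 against 1125 in Graft_D19, 4397 against 1301 in Sham_D40, and 4435 against 3756 in Ctrl. Timp4 was likewise higher in the upper band of every library, at 596, 1103, 1001 and 2021 CPM in the upper band of those 4, against 152, 64.7, 176 and 929 CPM in the lower band.

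Vwf, the clotting factor carrier that marks veins and larger vessels, ran against this gradient, at 105, 44.6, 100.1 and 116 CPM in the upper band of Graft_D40, Graft_D19, Sham_D40 and Ctrl, against 342, 274, 313 and 253 CPM in the lower band. Meox2 had no common direction: it was higher in the upper band of the other 3 libraries and lower in that of Ctrl, at 192 against 259 CPM. Just inside the threshold, cells with exactly 2 of the genes held 756, 811, 508 and 3164 CPM of Cd36 in those libraries, and just outside it cells with exactly 1 held 165, 118, 336 and 1031 CPM. These bands are descriptions, since the same 6 genes chose the cells.

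**Figure D2:**
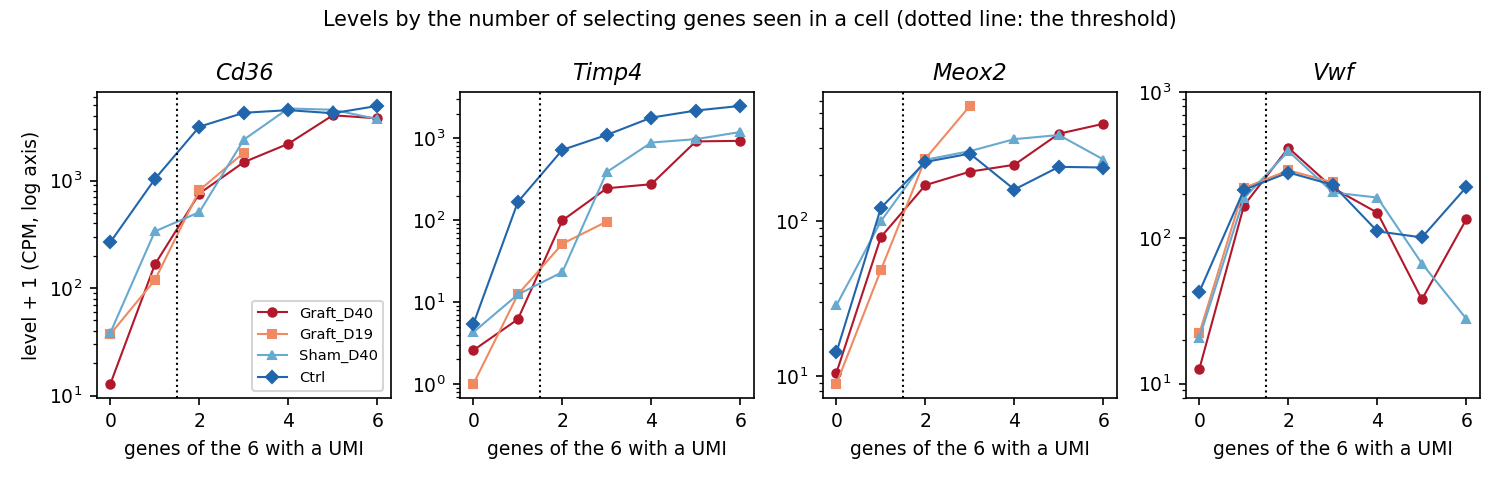
Level plus 1 in CPM (log axis) of 4 genes in endothelial cells grouped by how many of the 6 selecting genes had a UMI, by library, for groups of 10 or more cells. Cells right of the dotted line are the capillary class. Cd36 and Timp4 are higher at 3 genes than at 0 or 1 in each library, and Vwf peaks in all 4 libraries at 2 genes, just inside the line. Cd36 falls from 5 to 6 genes in Graft_D40 and Sham_D40, and in Ctrl it lies between 4224 and 4942 CPM from 3 to 6 genes. The Graft_D19 line ends at 3 genes, and its Cd36 level rises up to there.

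The capillary cells made up 15.2% of endothelial cells in Graft_D40 (interval 13.4 to 17.2), 4.08% in Graft_D19 (3.11 to 5.24), 13.3% in Sham_D40 (11.5 to 15.3) and 14.0% in Ctrl (12.2 to 15.9). Counted so, Graft_D19 was the lowest, and the intervals of the other 3 overlapped. When each cell was thinned to 2000 UMIs and shallower cells left out, the shares were 13.8% in Graft_D40 (11.9 to 15.9), 3.71% in Graft_D19 (2.73 to 4.91), 11.9% in Sham_D40 (10.1 to 14.0) and 5.62% in Ctrl (4.24 to 7.29). The intervals of Graft_D19 and Ctrl then overlapped. Of the 225 capillary cells of Graft_D40, 210 reached 2000 UMIs, against 55 of 199 in Ctrl. Requiring 3 of the 6 genes gave 10.4%, 2.39%, 10.7% and 11.2% in Graft_D40, Graft_D19, Sham_D40 and Ctrl. Among capillary, sinusoidal and arterial cells alone the shares were 27.7% in Graft_D40 and 5.5% in Graft_D19, against 17.2% in Sham_D40 and 16.8% in Ctrl. The sort sets which endothelial cells entered each library, and with 1 library per group the difference between groups cannot be told apart from that between libraries.

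**Figure D3:**
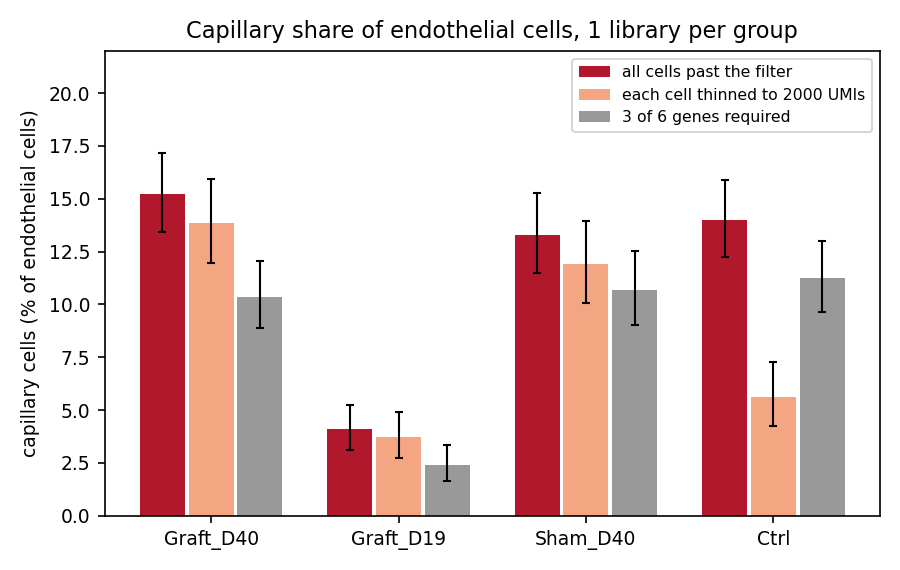
Capillary cells as a percentage of endothelial cells in the 4 libraries, under 3 ways of counting, with Clopper-Pearson 95% intervals. Graft_D19 is lowest at 4.08%, and the Ctrl bar drops to 5.62% when cells are thinned to 2000 UMIs.

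Between libraries a gene was measured when it had 30 or more UMIs over the capillary cells of both, and the log2 ratio was taken on CPM plus 5, which understates the change of low genes. The minimum applies to both libraries together, and the capillary total of Graft_D40 (1419802 UMIs) exceeded those of Sham_D40 (846282) and Ctrl (368557). A gene found only in the deeper library of a pair therefore passed at a lower CPM than a gene found only in the shallower. The part of this in the numbers of higher and lower genes was not tested. In Graft_D40 over Sham_D40, 206 of 8055 genes (2.56%) were past 2-fold higher and 69 (0.857%) past 2-fold lower. Without cells at 50 or more cartilage UMIs per 10000, 149 of 7886 were higher and 60 lower. In Graft_D19 over Ctrl, 213 of 3943 (5.4%) were higher and 208 (5.28%) lower, and in Sham_D40 over Ctrl 362 of 5949 (6.09%) were higher and 165 (2.77%) lower. With the ungrafted library exchanged, 609 of 7327 (8.31%) were higher and 208 (2.84%) lower in Graft_D40 over Ctrl, and 73 of 5779 (1.26%) higher and 159 (2.75%) lower in Graft_D19 over Sham_D40. Past 2-fold from both ungrafted libraries, unnamed and housekeeping classes such as ribosomal genes aside, were 133 higher and 14 lower genes in Graft_D40, and 21 higher and 17 lower in Graft_D19. The comparisons between libraries share the ungrafted libraries. Their shares of all genes measured are the background for every list counted below between the same libraries.

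In Graft_D40 the genes furthest above both ungrafted libraries were Acan, Ccl2, Cnmd, Col11a1, Col2a1, Col9a2, Col9a3, Hapln1, Mgp and Mia, of which all but Ccl2 and Mgp are genes of cartilage matrix and cartilage cells, and Mgp is abundant in cartilage too. Col2a1, the chain of cartilage collagen II, was at 1859 CPM in Graft_D40 and 237 in Graft_D19, against 74.4 in Sham_D40 and 8.14 in Ctrl. Its log2 ratio over Sham_D40 was 4.55 with all cells and 1.36 without the 4 Graft_D40 cells and 1 Sham_D40 cell at 50 or more cartilage UMIs per 10000. Mgp went likewise, at 3.93 with all cells and 1.46 without those cells. Ccl2, a monocyte attractant, was at 58.5 CPM in Graft_D40 with no UMI in the other 3 libraries, and 67.5% of its 83 UMIs came from 1 cell.

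Some interferon-response genes were higher in the capillary cells of Graft_D40 than in those of Sham_D40, where 5 of 31 measured genes were past 2-fold higher and 1 past 2-fold lower, or 3 and 1 when each cell weighed the same. Their median log2 ratio was 0.51, and over all genes measured 2.56% were higher and 0.857% lower. Ifi27l2a (chr12:103442167-103443680), a gene induced by type I interferon, was at 533 CPM in Graft_D40 and 27.5 in Graft_D19, against 169 in Sham_D40 and 152 in Ctrl, which is 3.16-fold (95% interval 2.64 to 3.8) over Sham_D40 and 3.51-fold (95% interval 2.67 to 4.69) over Ctrl. Its UMIs were spread over 89 of 225 cells in Graft_D40 (39.6%), 5 of 58 in Graft_D19 (8.62%), 30 of 168 in Sham_D40 (17.9%) and 17 of 199 in Ctrl (8.54%). After thinning to 2000 UMIs the shares were 26.2%, 3.64%, 12.7% and 10.9% in those libraries. In sinusoidal cells of Graft_D40, Graft_D19, Sham_D40 and Ctrl, 9.47%, 3.05%, 3.35% and 1.88% of cells had a UMI, at median depths of 8631, 9106, 8926 and 4843 UMIs.

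Ifit3, an interferon-induced antiviral gene, was at 130.3 CPM in Graft_D40 and 41.3 in Graft_D19, against 47.3 in Sham_D40 and 109 in Ctrl. Graft_D40 was 2.76-fold (95% interval 1.95 to 3.98) over Sham_D40. Against Ctrl the Graft_D40 level was 1.20-fold (95% interval 0.849 to 1.73), an interval that includes 1. Irf7, the factor that amplifies interferon production, was at 129.6 CPM in Graft_D40 and 51.6 in Graft_D19, against 47.3 in Sham_D40 and 160.1 in Ctrl, so that its level in Graft_D40 was above Sham_D40 and below Ctrl. Oasl2, another antiviral gene, was at 101 CPM in Graft_D40 and 34.4 in Graft_D19, against 34.3 in Sham_D40 and 51.6 in Ctrl, and its Graft_D40 level was the highest of the 4. Over the list, the median log2 ratio was 0.51 for Graft_D40 over Sham_D40 but 0.15 for Graft_D40 over Ctrl, with 1 of 31 genes past 2-fold in each direction, and -0.48 for Sham_D40 over Ctrl, with none higher and 3 lower. Of all genes, 8.31% were higher and 2.84% lower in Graft_D40 over Ctrl, and 6.09% and 2.77% in Sham_D40 over Ctrl. Cxcl9, a T-cell attractant induced by interferon gamma, was the 1 lower gene of Graft_D40, at 14.8 CPM in Graft_D40 and 24.1 in Graft_D19, against 52.0 in Sham_D40 and 43.4 in Ctrl.

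In Graft_D19 the interferon list depended on the ungrafted library it was set against. Over Ctrl none of 26 measured genes was past 2-fold higher and 8 were past 2-fold lower, around a median of -0.53. Over Sham_D40 none of 30 was higher and 2 were lower, with a median of -0.12. Of all genes, 5.4% were higher and 5.28% lower over Ctrl, and 1.26% and 2.75% over Sham_D40. Isg15, a ubiquitin-like interferon product, was at 65.4 CPM in Graft_D19 against 298 CPM in Ctrl, with 213 CPM in Graft_D40 and 138 CPM in Sham_D40. These Graft_D19 values rest on 58 cells. Of 12 antigen presentation genes measured in Graft_D40 over Sham_D40, H2-Q6 and H2-Q7, nonclassical class I genes, were past 2-fold higher and none was lower, with a median of 0.63. The share of all genes higher in that comparison was 2.56%. H2-Q7 was at 92.3 CPM in Graft_D40 and 37.8 in Graft_D19, against 26.0 in Sham_D40 and 38.0 in Ctrl, and since H2-Q6 and H2-Q7 are near-identical copies, reads can be split between them. H2-K1, a classical class I chain, was 1.61-fold (95% interval 1.46 to 1.78) over Sham_D40.

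**Figure D4:**
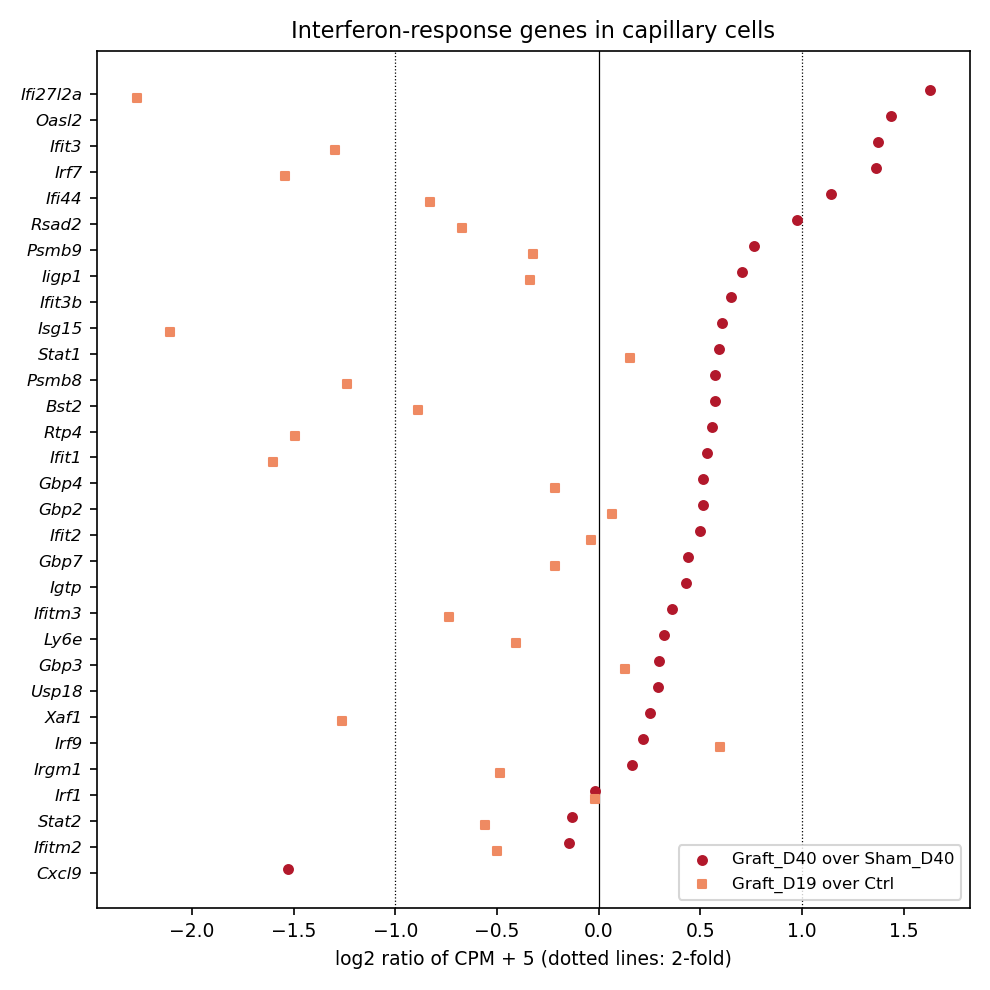
Log2 ratio of CPM plus 5 of interferon-response genes with 30 or more UMIs in capillary cells, for Graft_D40 over Sham_D40 and Graft_D19 over Ctrl, 1 library each. Most circles lie right of 0, with Cxcl9 at -1.53, and most squares lie left of 0.

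The 14 genes past 2-fold lower in Graft_D40 than in both ungrafted libraries included Akr1c14, Arhgef6, Art3, Car8, Cxcl9, Fam102a, Gstm2, Hp, Rasgrp2 and Tmem204. Car8, a carbonic anhydrase relative without enzyme activity and one of the leading genes of the class, stood at 53.5 CPM in Graft_D40 and 99.8 in Graft_D19, against 171 in Sham_D40 and 274 in Ctrl. Both grafted libraries were below both ungrafted ones, and the Graft_D40 ratio over Sham_D40 was -1.59 (log2; 95% interval of the ratio 0.234 to 0.415), or -1.5 in cells with 3 or more of the 6 genes. Rasgrp2, a Rap1 activator, had the same order, at 49.3 CPM in Graft_D40 and 68.8 in Graft_D19, against 121 in Sham_D40 and 206 in Ctrl. Hp, haptoglobin, was at 18.3 CPM in Graft_D40 and 10.3 in Graft_D19, against 57.9 in Sham_D40 and 106 in Ctrl, and was also lower in the sinusoidal cells of Graft_D40 than in those of Sham_D40 (log2 -0.81).

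The markers of the class stood highest in Ctrl for Cd36, Timp4 and Fabp4. None of the 14 capillary genes was past 2-fold in Graft_D40 over Sham_D40, with a median log2 ratio of -0.46. In Graft_D40 over Ctrl 7 of 14 were past 2-fold lower, with a median of -1.0. In Graft_D19 over Ctrl 8 were past 2-fold lower, with a median of -1.18, and in Sham_D40 over Ctrl 4 were lower and 1 higher, with a median of -0.75. When each cell weighed the same, 4 were lower in Graft_D40 over Ctrl, with a median of -0.66, and 1 was lower and 1 higher in Sham_D40 over Ctrl, with a median of -0.65. With 3 of the 6 genes required, 4 of the 14 were lower and 1 higher in Graft_D19 over Ctrl, with a median of -0.87. Of all genes measured with all cells, 2.84% were lower in Graft_D40 over Ctrl, 5.28% in Graft_D19 over Ctrl and 2.77% in Sham_D40 over Ctrl. Timp4 fell by 1.96 and Fabp4 by 1.30 in Graft_D19 over Ctrl (log2). Cell depth moved with these ratios, as the Ctrl cells were the shallowest, and its part in them was not tested. Kitl stood at log2 -0.62 in Graft_D40 over Sham_D40, where the median of the 14 genes was -0.46. In Graft_D19 over Ctrl Kitl stood at -0.41, where that median was -1.18.

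Of the immediate early and heat shock genes, which respond to handling and to flow, none of 32 was past 2-fold higher and 6 were lower in Graft_D40 over Sham_D40, whereas 13 of 29 were higher and none lower in Sham_D40 over Ctrl. Over all genes, 2.56% were higher and 0.857% lower in Graft_D40 over Sham_D40, so none of 32 higher lies near its share. In Sham_D40 over Ctrl 6.09% of all genes were higher and 2.77% lower. Klf2, a factor induced by blood flow, was at 561 CPM in Graft_D40 and 578 in Graft_D19, against 1354 in Sham_D40 and 507 in Ctrl. Klf4, its relative, was at 273 CPM in Graft_D40 and 392 in Graft_D19, against 822 in Sham_D40 and 217 in Ctrl, and for both genes Sham_D40 stood above the other 3 libraries. Hspa1a, a stress chaperone, was likewise highest in Sham_D40, at 26.8 CPM in Graft_D40 and 27.5 in Graft_D19, against 130.0 in Sham_D40 and 48.8 in Ctrl. In Graft_D19 over Ctrl 4 of 21 were higher, Fos, Fosb, Jun and Egr1, where 5.4% of all genes were. Fos stood at 244 CPM in Graft_D40 and 612 in Graft_D19, against 189 in Sham_D40 and 141 in Ctrl.

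Among vessel wall collagens, Col15a1 and Col18a1 were lower in Ctrl than in the other 3 libraries. Col15a1, a basement membrane collagen, was at 328 CPM in Graft_D40 and 306 in Graft_D19, against 338 in Sham_D40 and 70.5 in Ctrl, and Col18a1, the source of endostatin, at 194 CPM in Graft_D40 and 131 in Graft_D19, against 111 in Sham_D40 and 8.14 in Ctrl. The Ctrl value of Col18a1 rests on 3 UMIs, the limit taken for that library, whose capillary cells were the shallowest. The Graft_D40 ratio of Col15a1 over Sham_D40 was -0.04 (log2; 95% interval of the ratio 0.835 to 1.13), and that of Sham_D40 over Ctrl was 2.18. Of 17 basement membrane genes 1 was past 2-fold higher in Graft_D40 over Sham_D40, 4 in Graft_D19 over Ctrl and 3 in Sham_D40 over Ctrl, with none lower in any of the 3. Over all genes measured, 2.56%, 5.4% and 6.09% were higher in those comparisons, and the count of 1 of 17 lies near its share. The 1 gene of Graft_D40 over Sham_D40 was no longer past 2-fold without cells at 50 or more cartilage UMIs per 10000 or when each cell weighed the same, and with 3 or more of the 6 selecting genes required there were 3. Selp, P-selectin, which captures leukocytes, was at 69.7 CPM in Graft_D40 and 92.9 in Graft_D19, against 31.9 in Sham_D40 and 8.14 in Ctrl, highest in the grafted libraries, on 99, 27, 27 and 3 UMIs in Graft_D40, Graft_D19, Sham_D40 and Ctrl. With venous genes as a list, 3 of 10 were past 2-fold higher in Graft_D40 over Sham_D40, 4 of 8 in Graft_D19 over Ctrl and 2 of 9 in Sham_D40 over Ctrl, and none was lower. The shares of all genes higher were 2.56%, 5.4% and 6.09% in those comparisons. In Graft_D19 over Sham_D40 1 of 9 was higher, where 1.26% of all genes were. In cells with 3 or more of the 6 selecting genes, 2 of 9 were higher in Graft_D40 over Sham_D40, none of 3 in Graft_D19 over Ctrl and none of 5 in Sham_D40 over Ctrl.

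In Graft_D19 the genes furthest above both ungrafted libraries were Cd24a, Col2a1, Egr1, Fos, Gucy1a1, Hist1h2ap, Phlda3, Selp, Tmem158 and Tubb6, and those furthest below were Acaa1a, Art3, Fdx1, Hp, Ifi27l2a, Jarid2, Kdm6b, Pwwp2a, Slc26a10 and Timeless. Some ratios rested on few cells. Apln, the apelin ligand of sprouting tip cells, was at 237 CPM in Graft_D40 and 17.2 in Graft_D19, against 61.4 in Sham_D40 and 5.43 in Ctrl, but 71.8% of its 337 UMIs in Graft_D40 came from 1 cell. Pgf, placental growth factor, was at 119 CPM in Graft_D40, with 49.7% of its UMIs in 1 cell. In Graft_D19, Gucy1a1, a subunit of the nitric oxide receptor, stood at 29.6 CPM in Graft_D40 and 114 in Graft_D19, against 26.0 in Sham_D40 and 16.3 in Ctrl, with 27.3% of its Graft_D19 UMIs in 1 cell, and Cd24a at 26.1 CPM in Graft_D40 and 141 in Graft_D19, against 40.2 in Sham_D40 and 29.8 in Ctrl, with 31.7%.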

How the data were processed

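The authors deposited 1 matrix of raw UMI counts per library. The matrices carry the name of Cell Ranger 5.0.0, per the file headers. Version 3.1.0 and mm10 stand in the submitters' processing notes. Gene positions are from GENCODE vM21. Counts were summed per library and class and tested with edgeR 4.0.16 (TMM, filterByExpr, quasi-likelihood, library as block, Benjamini-Hochberg adjustment over all genes tested), with DESeq2 1.42.0 as an alternative, and the fit was tested on simulated data. CPM are those counts per 1000000 of the class. Library ratios carry exact conditional binomial intervals, shares Clopper-Pearson intervals. Genes named by size were the first 10 per direction, for classes by fold change at 50 CPM or more, and for grafts by the smaller of the log2 ratios over both ungrafted libraries. Genes of the rule, mitochondrial, ribosomal protein, haemoglobin, immunoglobulin, Y-linked and unnamed genes and X inactivation transcripts were left out of these. List members were named in addition, and 1 gene that the rule names is not reported here. Members and gene lists were chosen with earlier results of these data known. Scrublet in scanpy 1.11.5 called doublets, which were kept. The 2 antibody features of Graft_D40 and Sham_D40 were left out of all totals. Counts of UMIs per library were 72204599 in Graft_D40 and 63214301 in Graft_D19, with 51744386 in Sham_D40 and 18533482 in Ctrl.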

Additional observations from a re-analysis of the deposited data

Results flagged for a closer look

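3 interferon-response genes of the capillary cells had ratios of opposite sign in the comparisons of the 2 graft times, which use different ungrafted libraries. Ifi27l2a had a log2 ratio of 1.63 in Graft_D40 over Sham_D40 and -2.27 in Graft_D19 over Ctrl. Ifit3 had 1.37 and -1.29, and Irf7 1.36 and -1.54 in these comparisons. With 1 ungrafted library for both times, the ratios of Graft_D40 and Graft_D19 over Ctrl were 1.78 and -2.27 for Ifi27l2a, 0.25 and -1.29 for Ifit3, and -0.29 and -1.54 for Irf7. Over Sham_D40 they were 1.63 and -2.42, 1.37 and -0.18, and 1.36 and 0.12. Irf7 therefore had the same sign at both times over either library. The difference between the times was not tested, as each group is 1 library and Graft_D19 has no sham of its own day. In sinusoidal cells the ratios of Graft_D19 over Ctrl were 0.19 for Ifi27l2a, 0.70 for Ifit3 and 0.21 for Irf7.

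The Graft_D40 and Sham_D40 files hold 2 antibody features that the results above do not use, and whose targets are not given in the sources used here. Feature B0302 had a median of 878 counts in the capillary cells of Graft_D40 and was the higher of both features in 225 of 225 cells. Feature B0301 had a median of 210 counts in those of Sham_D40 and was the higher in 168 of 168 cells.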

How the results depend on the processing

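Without 1 library at a time, the genes called against sinusoidal cells ranged over 964 to 1243 higher and 980 to 1489 lower, those against arterial cells over 172 to 323 and 146 to 345, and those against remaining cells over 1216 to 1831 and 1537 to 2207. With no filter on low counts, 526 genes were higher and 578 lower than in arterial cells. Thinned cells left 553 higher and 642 lower than in remaining cells, and dropping cells rich in cartilage UMIs, an alternative chosen after seeing the data, left 971 and 1243.

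The share in Graft_D40, Graft_D19, Sham_D40 and Ctrl moved to 10.4%, 2.39%, 10.7% and 11.2% with 3 of the 6 genes, to 12.6%, 2.77%, 8.14% and 6.57% with a stromal limit of 20 per 10000, in Ctrl to 5.62% when thinned, and in Graft_D40 to 17.4% with 2 endothelial UMIs; the cause was not tested.

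Genes past 2-fold higher and lower in Graft_D40 over Sham_D40 were 93 and 26 with a pseudocount of 20 CPM, 377 and 142 with no minimum, 74 and 24 with 100 UMIs, 609 and 208 over Ctrl, and 112 lower with a pseudocount of 1. In Graft_D19 over Ctrl they were 128 and 124, 1307 and 1230, and 36 and 55 under the first 3, 112 higher with 3 of 6 genes and 73 higher over Sham_D40. In Sham_D40 over Ctrl they were 161 and 73, 971 and 650, and 98 and 56.

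Of 64 named genes called against sinusoidal cells, 756 of 768 values under the alternatives kept direction and call, and of 50 against arterial cells, 562 of 595; the others kept direction and lost the call. With the comparator exchanged, the log2 ratio reversed for Irf7 (-0.29), Klf4 (0.33), Klf2 (0.14) and Dusp1 (0.39) in Graft_D40 over Ctrl and for Irf7 (0.12) and Col15a1 (-0.14) in Graft_D19 over Sham_D40. No paired analysis between groups was possible because each group has 1 library. Every class test paired the classes within a library, with the library as the block. With 33 to 58 cells in the smallest classes, low genes could not be compared.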
